A study of Mus musculus with 6 samples.

Results

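The subject is the comparison of 2 keratinocyte lines that both carry integrin α3, a rescue line (MK546_3a rescue) and a wild-type line (MK116_wild type), over every transcript cluster of an exon array. The 4 arrays compared, 2 for each line, were chosen by their titles from the 6 arrays of the series, and 23332 transcript clusters were compared; a transcript cluster is a set of exons that the array assigns to the same locus. The rescue line descends from keratinocytes of an α3-null newborn mouse and was stably transfected with human α3. The α3-null parent line (MK546_a3null) has the other 2 arrays, and its values are given beside those of the rescue line. The wild-type line came from a wild-type newborn mouse. The 3 lines share immortalization with the SV40 large T antigen, which binds p53 and Rb, and a low-calcium medium with interferon-γ, EGF, insulin and hydrocortisone on denatured rat tail collagen. Each genotype is thus represented by a single line, and the labels do not state whether the rescue line is a clone or a pool. The design text calls the 2 arrays of a line biological replicates without saying what separates them. The p-values therefore measure the spread between these arrays.

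Integrin α3β1 is one of the receptors through which basal keratinocytes hold on to laminin in the basement membrane, and it signals through focal adhesion kinase and Src. In skin, the keratinocytes that leave this membrane stop dividing and build the cornified envelope, a shell of cross-linked proteins. A line put back to α3 differs from an unrelated wild-type line in the animal it came from, in its passage through culture and in the transfected integrin, and these cannot be told apart in a comparison of the lines.

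Values are PLIER intensities, a summary of the probes of each cluster on a linear scale. Differences are rescue minus wild type on the log2(intensity + 16) scale, with SE, and understate the change of dim genes. A mean is given with its SD over the 2 arrays of a line (n = 2), and a signed number alone in parentheses is a log2 difference. Null values stand side by side with the others without a test, because null minus wild type shares the wild-type arrays. A cluster is called where limma's adjusted p is under 0.05. The number of arrays limits the precision. Total intensity was 12503410 to 13475844 per array, and Pearson's r between arrays on the log2 scale was 0.990 to 0.991 within lines and 0.966 to 0.968 between rescue and wild type.

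The α3 gene itself read low in the rescue line. Itga3 (cluster 6791017, chromosome 11) gave 1218 and 1221 in rescue, 997 and 907 in null and 6364 and 6287 in wild type. Both rescue arrays lay far below both wild-type arrays and above both null arrays (log2 difference -2.36 ± 0.07, limma adjusted p = 1.92e-05). The transfected cDNA is human, and how far probes for the mouse gene read it was not tested, so this value does not measure the α3 protein of the rescue line.

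The keratinocyte label was checked with marker genes, each list compared between the lines. All 20 markers of basal keratinocytes were measured, and their summed intensity was 74600 to 79500 on the rescue arrays, 80700 to 83800 on the null arrays and 82400 to 84500 on the wild-type arrays. Of these genes 5 were called higher, 1 lower (1 to 4 and 1 to 2 with 1 array left out) and 14, among them Krt5, Krt14 and Trp63, were not called. Over all 14996 clusters with a single gene symbol, 18.5% were called, 12.3% higher and 6.14% lower, which is the background for every gene list. The lower gene was Lgals7, which encodes the epithelial galectin-7, with 1221 and 1023 in rescue, 348 and 399 in null and 6499 and 6232 in wild type (log2 difference -2.49 ± 0.11, limma adjusted p = 7.90e-05). Its rescue values lay between those of the other lines, without overlap. For markers of other cell types, 26 fibroblast and mesenchymal markers gave 4770 to 5440 in rescue, 4410 to 4490 in null and 5590 to 6030 in wild type. The 17 immune markers gave 1430 to 1450 in rescue, 1150 to 1310 in null and 1540 to 1570 in wild type. The 16 endothelial markers gave 1230 to 1370 in rescue, 1070 to 1110 in null and 1290 to 1410 in wild type, and the 13 melanocyte markers 757 to 785 in rescue, 1290 to 1390 in null and 764 to 829 in wild type. Called members were 7 of the 26 fibroblast markers (26.9%), 2 of them higher (S100a4 and Cdh2) and 5 lower. The calls of S100a4, Cdh2, Prrx1, Prrx2 and Cdh11 were each lost under some alternatives. For the other lists, called members were 1 of the 17 immune (5.88%), 1 of the 16 endothelial (6.25%) and 0 of the 13 melanocyte markers. Vim, the mesenchymal filament vimentin that cultured keratinocytes also express, differed most in these lists, with 180.1 and 146 in rescue, 137 and 148 in null and 1199.9 and 939.5 in wild type (log2 difference -2.59 ± 0.15, limma adjusted p = 2.40e-04). Rescue and null arrays were low together, and the wild-type arrays high. In bulk RNA, fewer cells of a kind and less RNA per cell cannot be told apart.

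Over all clusters, 3599 were called between rescue and wild type (15.4%), 2420 higher (10.4%) and 1179 lower (5.05%) in the rescue line. The median difference over all clusters was 0.03, and the median size of a called difference was 0.59. A difference of at least 2-fold was called in 740 clusters (3.17%), 421 higher (1.80%) and 319 lower (1.37%). The very large differences leaned the other way, with 16 called clusters at least 16-fold higher and 36 at least 16-fold lower. The arrays of the lines did not overlap in 57.6% of all clusters, and in every called cluster. Higher calls made up 67.2% of all calls as deposited, and 60% and 53.5% after median centring and quantile normalization, so the balance of small differences rests on the scaling. The count was 1088 without wild-type array 2, 1388 without wild-type array 1, 1670 without rescue array 1 and 2331 without rescue array 2. The background for the gene lists is 2773 called of 14996. It includes dim clusters, and a fit of only the clusters brighter than the median cluster called 4019 of 11666. The lists were chosen with earlier results of these data known, so their shares are descriptions and not tests. Every called gene given with a difference kept its call under all 17 alternative settings in which it was tested, unless stated otherwise.

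**Figure D1:**
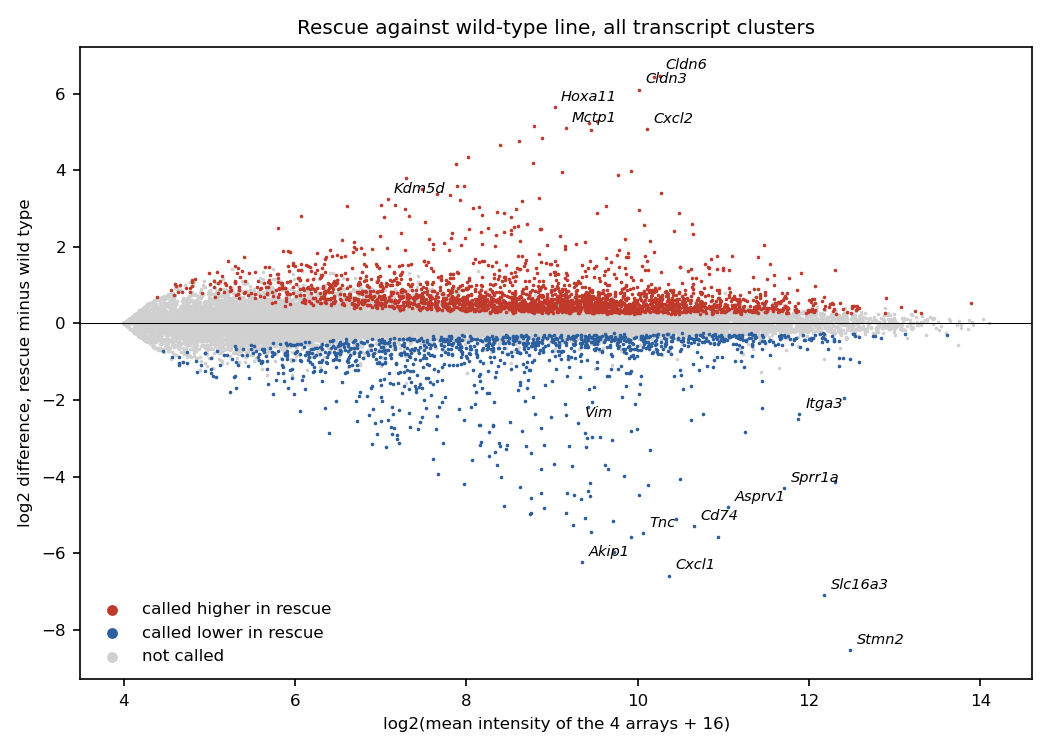
Each point is a transcript cluster, with the log2 of its mean intensity over the 4 arrays (plus 16) on the x axis and its log2 difference, rescue minus wild type, on the y axis. Red points were called higher in rescue (2420), blue points called lower (1179) and grey points not called, and falls such as that of Stmn2 (-8.54) reach further than the largest rise, Cldn6 (6.47).

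The largest fall in the rescue line was that of Stmn2. Stmn2, a regulator of microtubules best known in neurons, gave 15.01 and 14.4 in rescue, 14.9 and 13.3 in null and 11767 and 11028 in wild type. Rescue and null arrays were dim and overlapped, while both wild-type arrays were bright (log2 difference -8.54 ± 0.08, limma adjusted p = 1.35e-06). Slc16a3, the lactate exporter MCT4, showed the same layout, with 48.6 and 53.96 in rescue, 52.96 and 57.4 in null and 9612 and 8785 in wild type (log2 difference -7.10 ± 0.09, limma adjusted p = 1.93e-06). Tslp, an epithelial cytokine that acts on dendritic cells, gave 60.6 and 66.03 in rescue, 15.4 and 35.5 in null and 3407 and 4219 in wild type. All 4 arrays of the lines from the null mouse were low (log2 difference -5.59 ± 0.24, limma adjusted p = 7.31e-05). Pdpn, the surface glycoprotein podoplanin, gave 23.7 and 23.5 in rescue, 129 and 153 in null and 1979.9 and 1781 in wild type. Here the null arrays lay between the other lines, and the rescue arrays were lowest (log2 difference -5.58 ± 0.11, limma adjusted p = 4.73e-06). Selenom, a selenoprotein of the endoplasmic reticulum, averaged 14.7 ± 5.75 in rescue, 164 ± 17.5 in null and 1163 ± 79.5 in wild type (-5.27). Slc50a1, a sugar transporter gene, averaged 22.5 ± 0.0170 in rescue, 413 ± 14.4 in null and 1282 ± 186 in wild type (-5.07). Both genes, and Tmem159 (-4.98), were in rescue below null and in null below wild type on every array.

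Other genes were low in rescue while the parent line lay near wild type. Akip1, which encodes a protein that binds protein kinase A, gave 1.35 and 0.947 in rescue, 921 and 1112 in null and 1381 and 1166 in wild type. The null arrays were near the wild-type arrays, and both rescue arrays were close to 0 (log2 difference -6.23 ± 0.13, limma adjusted p = 5.93e-06). Slc25a13, the mitochondrial aspartate-glutamate carrier citrin, gave 10.9 and 10.04 in rescue, 1181 and 1300.2 in null and 1649 and 1655 in wild type. Again only the rescue arrays were low (log2 difference -5.98 ± 0.08, limma adjusted p = 2.06e-06). Dsc3, a cadherin of basal desmosomes, was likewise low in rescue alone, with 546 and 618 in rescue, 4044 and 4376 in null and 4188 and 4339 in wild type (log2 difference -2.84 ± 0.08, limma adjusted p = 1.98e-05).

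The largest rises were of 2 claudins, a cytidine deaminase and a Hox gene. Cldn6, a claudin of embryonic epithelia, gave 2388 and 2413 in rescue, 1703 and 1557 in null and 11.04 and 11.5 in wild type. Rescue and null arrays were high and both wild-type arrays near the bottom of the range (log2 difference 6.47 ± 0.07, limma adjusted p = 1.80e-06). Cldn3, another tight-junction claudin, gave 2154 and 1906 in rescue, 285 and 312 in null and 15.1 and 12.1 in wild type. The 3 lines formed 3 separate levels, with rescue on top (log2 difference 6.11 ± 0.10, limma adjusted p = 4.32e-06). Apobec3, a deaminase that restricts retroviruses, gave 2409 and 2187 in rescue, 1511 and 1842 in null and 6.78 and 15.3 in wild type (log2 difference 6.44 ± 0.17, limma adjusted p = 1.35e-05). Hoxa11, a homeobox factor of the limb and the reproductive tract, gave 1027 and 995 in rescue, 1459 and 1532 in null and 5.20 and 3.97 in wild type. For both genes the lines from the null mouse were high and wild type very low (log2 difference 5.64 ± 0.08, limma adjusted p = 2.06e-06).

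In other genes rescue was high while null lay near wild type. Mctp1, a calcium-binding membrane protein, gave 1155 and 1036 in rescue, 26.6 and 22.2 in null and 17.3 and 15.7 in wild type. Null and wild type were both dim (log2 difference 5.10 ± 0.11, limma adjusted p = 7.25e-06). Tnip3, an inhibitor of NF-κB signalling, gave 1965 and 1665 in rescue, 102 and 105 in null and 94.7 and 102 in wild type (log2 difference 3.99 ± 0.10, limma adjusted p = 1.14e-05). Neurl3, a ubiquitin ligase gene, averaged 1023 ± 35.7 in rescue, 49.4 ± 10.7 in null and 51.2 ± 9.94 in wild type (3.96). For these 3 genes the null and wild-type arrays were close to each other, and rescue was the line that stood apart. Other genes were high in rescue and at a middle level in null. They were Acap1, an ARF6 GTPase-activating protein, at 1343 ± 89.3 in rescue, 138 ± 6.96 in null and 25.2 ± 1.86 in wild type (5.04), Mmrn2, an extracellular multimerin, at 1616 ± 57.7 in rescue, 487 ± 11.04 in null and 95.8 ± 0.378 in wild type (3.87), and Il5ra, a receptor chain of eosinophils, at 480.3 ± 88.6 in rescue, 186 ± 1.13 in null and 8.21 ± 1.44 in wild type (4.35). Slc22a4, an organic cation transporter (4.65), and Cwh43, which remodels GPI anchors (4.20), completed the 15 largest rises beside genes described below.

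**Figure D2:**
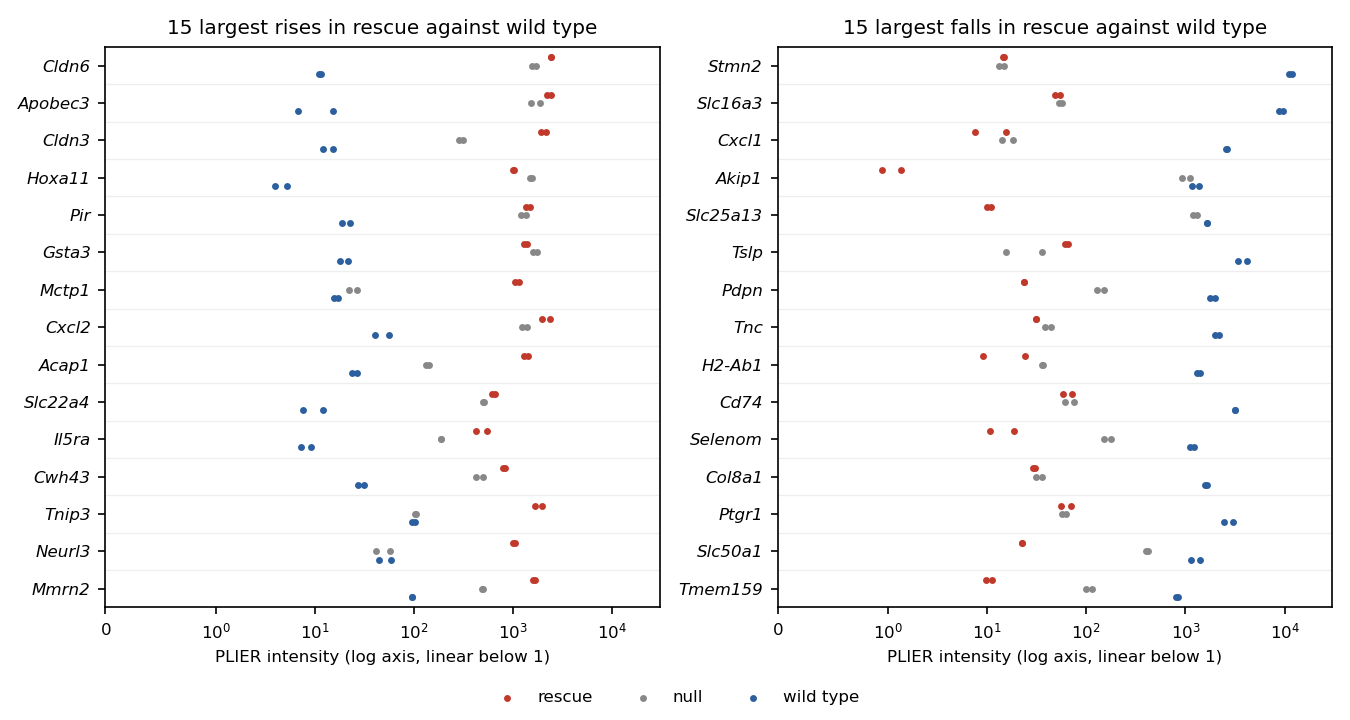
PLIER intensity (log axis, linear below 1) of the 15 called genes with the largest rises (left) and the largest falls (right) in the rescue line against wild type; red points are the 2 rescue arrays, grey points the 2 null arrays and blue points the 2 wild-type arrays. For Stmn2, Slc16a3 and Cxcl1 the null points lie with the rescue points, while for Akip1, Slc25a13, Mctp1, Tnip3 and Neurl3 they lie near the wild-type points.

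The paralogous chemokine genes Cxcl1 and Cxcl2, neighbours on chromosome 5 whose products attract neutrophils through the same receptor, differed in opposite directions. Cxcl1 gave 15.6 and 7.63 in rescue, 18.1 and 14.02 in null and 2625 and 2574 in wild type (log2 difference -6.58 ± 0.16, limma adjusted p = 8.69e-06). Cxcl2 gave 2325 and 1946 in rescue, 1211 and 1374 in null and 40.2 and 56.3 in wild type (log2 difference 5.07 ± 0.15, limma adjusted p = 2.10e-05). The wild-type line thus had a high Cxcl1 and a low Cxcl2 signal, and both lines from the null mouse the reverse. Their promoters are shown because both hold letters of the site of NF-κB, the factor known to induce these genes. A core of that site, GGNNTTTCC, was searched on both strands in the 250 bases upstream of each start site, and 4.93% of 32851 promoters held it. Each of the 2 promoters held it at 2 places that do not overlap, in capitals in these stretches of bases 110 to 51 upstream (RefSeq, GRCm38.p6, plus strand, chr5:90891135-90891194 and chr5:90903789-90903848), written 5′ to 3′.
Cxcl1: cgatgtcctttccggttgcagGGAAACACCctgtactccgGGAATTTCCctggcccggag
Cxcl2: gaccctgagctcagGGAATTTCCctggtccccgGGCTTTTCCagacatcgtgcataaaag
A match is a description of the letters, and binding was not measured. The letters were also in 4 of 13 promoters given for chemokine genes that were not called. Of 27 measured chemokine genes, 5 were called higher and 2 lower (2 to 4 and 2 with 1 array left out). The other fall was of Cxcl14, a chemokine of normal epidermis, with 153 and 143 in rescue, 145 and 153 in null and 2842 and 2570.2 in wild type (log2 difference -4.05 ± 0.08, limma adjusted p = 5.93e-06). Rescue and null arrays overlapped and lay far below wild type. Ccl25, a chemokine of thymus and gut, gave 668 and 549 in rescue, 135 and 144 in null and 158 and 174 in wild type, and only the rescue line was high (log2 difference 1.77 ± 0.12, limma adjusted p = 4.56e-04). The call of Cxcl5 (0.66) was lost without wild-type array 2 (limma adjusted p = 0.0700). The call of Ccl3 (0.86) was lost without wild-type array 1, wild-type array 2 or rescue array 1 (highest limma adjusted p 0.0865).

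Cytokine and alarmin genes were split, with 8 of 41 called higher and 8 lower (5 to 7 and 6 to 8 with 1 array left out). The antimicrobial siderophore-binding protein gene Lcn2 gave 2009 and 1649.9 in rescue, 70.9 and 89.03 in null and 299.7 and 281 in wild type. The rescue arrays were highest and the null arrays lowest (log2 difference 2.58 ± 0.13, limma adjusted p = 1.63e-04). Il1rn, the interleukin-1 receptor antagonist, averaged 264 ± 24.1 in rescue, 484 ± 104 in null and 92.9 ± 7.48 in wild type (log2 difference 1.36 ± 0.16, limma adjusted p = 0.00413), and Il18 averaged 188 ± 25.1 in rescue, 118 ± 7.39 in null and 64.6 ± 1.04 in wild type (log2 difference 1.33 ± 0.12, limma adjusted p = 0.00152). Both were lowest in wild type. On the other side, Csf2, the growth factor GM-CSF, averaged 539 ± 82.8 in rescue, 161 ± 4.92 in null and 1332 ± 18.5 in wild type (log2 difference -1.29 ± 0.11, limma adjusted p = 0.00132). Il1f5, an antagonist of the interleukin-36 receptor, averaged 25.4 ± 1.41 in rescue, 42.2 ± 7.48 in null and 153 ± 28.6 in wild type (log2 difference -2.02 ± 0.16, limma adjusted p = 0.00109). Of 24 TNF family genes 8 were higher and 1 lower, and the higher count was 1 to 5 when an array was left out. Tnfrsf26, a TNF receptor family member, gave 4492 and 3796 in rescue, 185 and 165 in null and 1237 and 1214 in wild type (log2 difference 1.74 ± 0.10, limma adjusted p = 2.60e-04). Wild type lay between the low null and the high rescue arrays.

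Of 13 genes reported in earlier work for α3β1 in keratinocytes, the α3 gene included, 9 were measured. Of these 0 were called higher (0 to 1 with 1 array left out) and 2 lower (Itga3 and Ptgs2), a share of 22.2% that is near the background of 18.5%. Fbln2, the matrix protein fibulin-2, gave 2211 and 2272 in rescue, 539 and 516 in null and 2395 and 2513 in wild type. Rescue lay near wild type and far above null, with a difference from wild type of -0.13 (95% interval -0.29 to 0.03, limma adjusted p = 0.245). Ptgs2, the inducible prostaglandin synthase COX-2, gave 1622 and 1387 in rescue, 3692 and 3882 in null and 3193 and 3446 in wild type. Here the null arrays were highest and the rescue arrays lowest (log2 difference -1.14 ± 0.09, limma adjusted p = 0.00113). Mmp9, the gelatinase B gene, was dim on all arrays, with 132 and 89.5 in rescue and 108 and 122 in wild type (95% interval of the difference -0.54 to 0.40). For Plau, the urokinase gene, the interval was -0.10 to 0.30, for the alarmin Il1a -0.22 to 0.35, for the procollagen protease Bmp1 -0.32 to -0.02 (limma adjusted p = 0.121) and for the guidance factor Sema3a -0.42 to 0.30. Vegfa, the angiogenic growth factor, gave 757 and 829.8 in rescue and 569 and 607 in wild type (difference 0.42, limma adjusted p = 0.0686), and it passed in 7 of the 17 alternatives, among them the fit of only rescue and wild-type arrays.

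Some integrin subunits other than α3 were also called, though the background share given beside them includes dim clusters. Of 20 measured subunit genes, 3 were called higher and 4 lower (2 to 3 and 2 to 4 with 1 array left out), or 35.0% against 18.5% of clusters with a symbol. Itgb7, best known from lymphocytes, gave 491 and 609 in rescue, 444 and 506 in null and 184 and 196 in wild type (log2 difference 1.45 ± 0.12, limma adjusted p = 0.00130), and Itgav, the αv subunit that binds RGD ligands, gave 2045 and 1991 in rescue, 1417 and 1464 in null and 1135 and 1174 in wild type (log2 difference 0.80 ± 0.06, limma adjusted p = 8.46e-04). In both, the null arrays also lay above the wild-type arrays, and those of Itgb7 overlapped the rescue arrays. Itga2, the collagen-binding α2 subunit, gave 370.4 and 329.8 in rescue, 85.6 and 101 in null and 735 and 859 in wild type. Rescue lay between null and wild type (log2 difference -1.15 ± 0.12, limma adjusted p = 0.00282). The partner subunit gene Itgb1 gave 5879 and 5494 in rescue, 7624 and 7643 in null and 3917 and 4111 in wild type (0.50). Its call was lost without wild-type array 1 or 2 (highest limma adjusted p 0.0614), that of Itgb5 (-0.58) without wild-type array 2 (0.0602), and that of Itga5 (-0.44) without each of the 4 arrays of these lines in turn (highest 0.115). Itga6 and Itgb4, which form the laminin receptor of the hemidesmosome, were not called (differences 0.23 and 0.03). Of 21 integrin-associated genes 4 were higher and 6 lower (1 to 4 and 2 to 5 with 1 array left out). Cd82, a tetraspanin, averaged 208 ± 2.88 in rescue, 203 ± 28.3 in null and 603 ± 13.7 in wild type (log2 difference -1.47 ± 0.10, limma adjusted p = 6.26e-04), and the tetraspanin Cd81 gave 3934 and 3553 in rescue, 319 and 390.4 in null and 7214 and 6753 in wild type (log2 difference -0.90 ± 0.11, limma adjusted p = 0.00505). Cd81 was lowest in null and highest in wild type. Icam1, a ligand of leukocyte integrins, averaged 283 ± 19.4 in rescue, 174 ± 15.9 in null and 125 ± 17.1 in wild type (log2 difference 1.09 ± 0.12, limma adjusted p = 0.00366).

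Interstitial matrix genes were lower where they differed most. Of 33 interstitial matrix genes 6 were called lower and 1 higher (21.2%, against a background of 18.5%). Tnc, the wound matrix glycoprotein tenascin-C, gave 31.1 and 31.2 in rescue, 38.1 and 44.1 in null and 1966 and 2185 in wild type (log2 difference -5.47 ± 0.10, limma adjusted p = 4.32e-06). Col8a1, a short-chain collagen, gave 30.7 and 28.8 in rescue, 31.3 and 35.4 in null and 1572 and 1665 in wild type (log2 difference -5.16 ± 0.09, limma adjusted p = 4.32e-06). In both, rescue and null were near the bottom of the range and wild type was high. The proteoglycan versican (Vcan) averaged 12.9 ± 0.305 in rescue, 12.8 ± 0.259 in null and 118 ± 9.92 in wild type (-2.22) and fibronectin (Fn1) 68.3 ± 2.78 in rescue, 49.99 ± 0.0672 in null and 152 ± 7.04 in wild type (-1.0). The gene higher in rescue was Ecm1, an extracellular matrix glycoprotein, with 1522 and 1575 in rescue, 1586 and 1798 in null and 514 and 554 in wild type (log2 difference 1.51 ± 0.08, limma adjusted p = 2.26e-04). Among 27 basement membrane and hemidesmosome genes 5 were higher and 4 lower, and 1 to 5 and 1 to 4 when an array was left out. Npnt, the α8β1 ligand nephronectin, gave 356 and 314 in rescue, 96.98 and 86.8 in null and 73.3 and 80.4 in wild type, high in rescue alone (log2 difference 1.92 ± 0.11, limma adjusted p = 2.40e-04). Fbln1, fibulin-1, averaged 323 ± 20.8 in rescue, 284 ± 20.1 in null and 642 ± 33.4 in wild type (log2 difference -0.96 ± 0.09, limma adjusted p = 0.00187).

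Matrix protease genes gave 2 higher and 4 lower calls of 31 (1 and 2 to 4 with 1 array left out). Their called share of 19.4% is near the background of 18.5%. Adam9, a membrane metalloprotease, averaged 2793 ± 2.73 in rescue, 1743 ± 92.4 in null and 1473 ± 52.8 in wild type (log2 difference 0.92 ± 0.07, limma adjusted p = 7.25e-04). Adamts4 and Adamts1, proteases of aggrecan and versican, were lower (-1.02 and -0.91), with Adamts4 at 189 and 192 in rescue, 92.4 and 95.1 in null and 379 and 425 in wild type. Of 22 genes of the plasminogen system and its inhibitors 6 were higher and 0 lower, and 3 to 6 were higher when an array was left out. Serpinb9, an inhibitor of granzyme B, averaged 5713 ± 114 in rescue, 5313 ± 126 in null and 3540.5 ± 85.7 in wild type (log2 difference 0.69 ± 0.06, limma adjusted p = 0.00148). Others called higher were Slpi (0.82), a leukocyte protease inhibitor, and Cst6 (0.85), the inhibitor cystatin M, but the call of Slpi was lost without each of the 4 arrays of these lines in turn (highest limma adjusted p 0.118), and that of Cst6 without rescue array 1, rescue array 2 or wild-type array 1 (highest 0.0911).

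Terminal differentiation genes were lower in the rescue line. Of 37 measured, 19 were called lower, 0 higher and 18 not called, against 6.14% lower among all clusters with a symbol, and their median difference was -0.55 against 0.03 over all clusters. Without an array, 13 to 18 were lower and 0 higher. Asprv1, a skin aspartic protease that processes profilaggrin, gave 124 and 139.5 in rescue, 323 and 335 in null and 3974 and 4220.1 in wild type (log2 difference -4.80 ± 0.08, limma adjusted p = 4.32e-06). Sprr1a, a cornified envelope precursor, gave 285 and 332 in rescue, 1674 and 1676 in null and 6144 and 6603 in wild type (log2 difference -4.30 ± 0.09, limma adjusted p = 5.93e-06). In both genes rescue lay below null and null below wild type, without overlap. Klk7, a protease of desquamation, averaged 50.5 ± 8.04 in rescue, 77.7 ± 9.31 in null and 622 ± 9.77 in wild type (log2 difference -3.27 ± 0.12, limma adjusted p = 5.04e-05). Cnfn, the envelope protein cornifelin, averaged 56.02 ± 20.7 in rescue, 95.1 ± 7.30 in null and 623 ± 115 in wild type (log2 difference -3.17 ± 0.22, limma adjusted p = 5.79e-04). Among genes that were not called were the envelope proteins Ivl and Lor, and the transglutaminase Tgm3.

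The small proline-rich genes form a block of neighbours on chromosome 3, and of all runs of 15 neighbouring measured genes it had the lowest median difference (-1.19; -1.33 for null minus wild type). From Sprr2d to Lce1a1, 9 of 15 genes were called lower and 0 higher. Of the Sprr2 genes in the run Sprr2e had the largest fall, with 138 and 171 in rescue, 192 and 216 in null and 1111 and 1525 in wild type (-2.96), followed by Sprr2i (-2.88) and Sprr2g (-2.44). Rescue and null were low and wild type high in each. Sprr2 genes are close copies of each other, so probes may share their signal. Of 21 keratin genes, 3 were lower and 1 higher, a called share near the background of 18.5%. Krt16, a keratin of activated epidermis, gave 726 and 620.4 in rescue, 1551 and 1453 in null and 2292 and 2198 in wild type (log2 difference -1.72 ± 0.09, limma adjusted p = 1.84e-04). Krt23 was dimmer, with 33.1 and 25.8 in rescue and 174 and 266 in wild type (-2.35), and so was Krt78, with 35.2 and 47.9 in rescue and 125 and 117 in wild type (-1.26). The basal keratins Krt5 and Krt14 were not called.

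**Figure D3:**
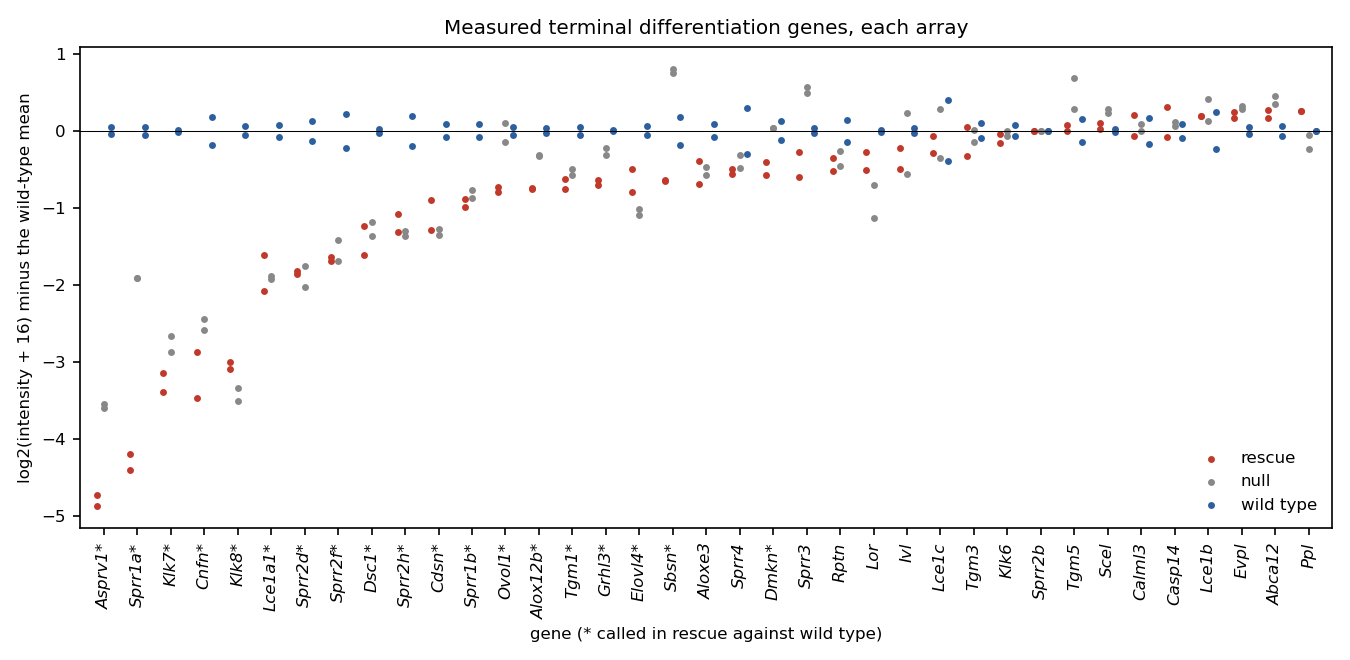
Each array's log2(intensity + 16) minus the wild-type mean (y axis) for the 37 measured terminal differentiation genes (x axis, ordered by rescue minus wild type); red points are rescue, grey null and blue wild type, and an asterisk marks the 19 called genes. The rescue points of Asprv1 and Sprr1a lie more than 4 log2 units below wild type and below the null points.

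Adhesion genes between cells moved both ways, with 6 of 23 desmosome and adherens junction genes higher and 6 lower (2 to 5 and 2 to 4 with 1 array left out). Beside Dsc3, the plakophilin gene Pkp2 was low, with 22.5 and 28.99 in rescue, 70.1 and 85.2 in null and 468 and 487 in wild type (log2 difference -3.57 ± 0.13, limma adjusted p = 4.21e-05). Its null arrays were closer to rescue than to wild type. Pcdh7, a protocadherin, averaged 1070.4 ± 22.01 in rescue, 802 ± 12.7 in null and 600.2 ± 19.99 in wild type (log2 difference 0.82 ± 0.06, limma adjusted p = 9.41e-04), and Pkp4, a plakophilin relative, 801 ± 12.8 in rescue, 926 ± 2.41 in null and 546 ± 11.9 in wild type (0.54). Of 28 tight and gap junction genes 4 were higher and 2 lower (21.4%, against a background of 18.5%). Pard3, a scaffold of cell polarity, averaged 473 ± 41.2 in rescue, 734 ± 15.6 in null and 195 ± 11.7 in wild type (log2 difference 1.21 ± 0.09, limma adjusted p = 7.25e-04), Gjb5, a connexin of skin, 96.98 ± 13.8 in rescue, 131 ± 8.16 in null and 233 ± 12.1 in wild type (log2 difference -1.14 ± 0.12, limma adjusted p = 0.00268), and Cldn7 67.3 ± 4.08 in rescue, 124 ± 6.34 in null and 131 ± 5.001 in wild type (-0.82).

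Of 47 measured genes of body position and appendage patterning, which are homeobox and T-box factors, 6 were called higher and 10 lower. When an array was left out, 6 were higher in every case and 2 to 8 were lower. Beside Hoxa11, Hoxa10 gave 485 and 491 in rescue, 454 and 444 in null and 38.3 and 54.03 in wild type (log2 difference 3.03 ± 0.13, limma adjusted p = 7.31e-05) and Hoxb13 gave 458 and 475 in rescue, 354 and 475 in null and 79.9 and 72.1 in wild type (log2 difference 2.39 ± 0.14, limma adjusted p = 2.95e-04), both genes of the 5′ end of their clusters. Pitx1, a factor of hindlimb identity, gave 812 and 829 in rescue, 692 and 752 in null and 70.2 and 69.7 in wild type (log2 difference 3.28 ± 0.08, limma adjusted p = 7.96e-06). In all 3 the rescue and null arrays were high and the wild-type arrays low. Hoxb2, from the 3′ end of its cluster, ran the other way, with 17.8 and 38.2 in rescue, 34.8 and 29.2 in null and 318 and 406 in wild type (log2 difference -3.13 ± 0.25, limma adjusted p = 9.28e-04), and Hoxb7 averaged 103 ± 0.835 in rescue, 124 ± 6.98 in null and 259 ± 39.9 in wild type (-1.20). No measured gene of the Hoxc and Hoxd clusters was called, including Hoxc13 and Hoxd13 of the 5′ ends. Among 37 epidermal transcription factors 6 were higher and 7 lower (3 to 6 and 4 to 6 with 1 array left out). Sox2, a progenitor factor, gave 372 and 473 in rescue, 857 and 951 in null and 20.8 and 19.3 in wild type (log2 difference 3.6 ± 0.13, limma adjusted p = 4.08e-05). Runx1 averaged 1617 ± 91.5 in rescue, 1262 ± 23.03 in null and 903 ± 45.9 in wild type (log2 difference 0.83 ± 0.07, limma adjusted p = 0.00150). Tfap2c, an epidermal AP-2 factor, averaged 119.8 ± 10.6 in rescue, 85.00 ± 2.68 in null and 394 ± 3.12 in wild type (log2 difference -1.59 ± 0.09, limma adjusted p = 2.65e-04), and Prdm1, a transcriptional repressor, 40.2 ± 6.02 in rescue, 79.7 ± 3.37 in null and 106 ± 7.64 in wild type (-1.13). The Id inhibitors diverged, with Id2 higher (0.99) and Id3 lower (-1.01).

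Growth factor and morphogen genes contained a few large differences among many small ones. The list of EGF receptor, FGF and IGF genes had 2 higher and 5 lower calls of 36 (19.4%, near the background of 18.5%). Epgn, the EGF receptor ligand epigen, gave 36.9 and 34.3 in rescue, 239.6 and 252 in null and 1275 and 1188 in wild type (log2 difference -4.59 ± 0.08, limma adjusted p = 4.32e-06). The 3 lines formed 3 levels, with rescue lowest. Fgfr2, the keratinocyte growth factor receptor gene, averaged 70.2 ± 4.89 in rescue, 277 ± 15.8 in null and 193 ± 4.70 in wild type (log2 difference -1.28 ± 0.09, limma adjusted p = 6.97e-04). Igfbp7, an IGF-binding protein, averaged 4334 ± 411 in rescue, 2671 ± 191 in null and 1788 ± 31.7 in wild type (log2 difference 1.27 ± 0.09, limma adjusted p = 6.28e-04). Igf2bp3, an RNA-binding protein of embryonic tissue, gave 18.9 and 13.9 in rescue, 355 and 397 in null and 247 and 239.9 in wild type, low in rescue alone (log2 difference -3.01 ± 0.12, limma adjusted p = 5.17e-05). Of 44 Wnt genes 5 were higher and 3 lower, a share of 18.2% that is close to the background of 18.5% (1 to 3 higher and 2 lower with 1 array left out). They included Wnt5a, a ligand of non-canonical signalling, at 118 ± 0.939 in rescue, 31.04 ± 0.672 in null and 44.2 ± 0.506 in wild type (log2 difference 1.16 ± 0.11, limma adjusted p = 0.00168) and Sfrp1, a secreted Wnt inhibitor, at 8.72 and 9.21 in rescue, 54.1 and 61.2 in null and 365 and 368 in wild type (log2 difference -3.94 ± 0.11, limma adjusted p = 1.37e-05). Of 31 BMP and TGF-β genes 4 were higher and 3 lower (3 to 4 and 1 to 4 with 1 array left out). Their called share was 22.6%, against a background of 18.5%. The 3 TGF-β receptor genes were all higher, Tgfbr3 by 1.24, Tgfbr2 by 0.74 and Tgfbr1 by 0.66, with Tgfbr2 at 1567 and 1515 in rescue, 1286 and 1263 in null and 915 and 917 in wild type. Fstl1, a secreted follistatin relative, averaged 246 ± 30.01 in rescue, 204 ± 2.58 in null and 1766 ± 160.0 in wild type (log2 difference -2.76 ± 0.11, limma adjusted p = 5.34e-05). Of 33 angiogenic and guidance genes 7 were higher and 6 lower (4 to 8 and 4 to 7 with 1 array left out). The lymphangiogenic ligands ran in opposite directions, with Vegfc at 460.0 and 412 in rescue, 64.2 and 56.7 in null and 131 and 150.1 in wild type (log2 difference 1.53 ± 0.11, limma adjusted p = 7.15e-04) and Vegfd at 479 and 418 in rescue, 799.8 and 787 in null and 2779 and 2555 in wild type (log2 difference -2.53 ± 0.09, limma adjusted p = 3.67e-05). Nrp1, a receptor of semaphorins and VEGF, gave 1223 and 1228 in rescue, 2309.7 and 2532 in null and 398 and 386 in wild type (log2 difference 1.61 ± 0.07, limma adjusted p = 8.04e-05). Its null arrays were higher still. Of 16 YAP and TAZ genes 3 were higher and 4 lower (0 to 2 and 2 to 4 with 1 array left out). Tead2, a DNA-binding partner of YAP, gave 139 and 133 in rescue, 144 and 146 in null and 1196 and 1176 in wild type (log2 difference -2.98 ± 0.07, limma adjusted p = 8.69e-06). Also lower were Amotl2 (-0.71), Ccn2 (-0.76) and Ajuba (-0.37), and higher were Ankrd1 (0.54), Ptpn14 (0.40) and Tead4 (0.36). Amotl2, Ccn2 and Ankrd1 are known YAP targets, so targets were called in both directions. Except for that of Amotl2, each of these calls was lost without wild-type array 1 or 2, and each but that of Ccn2 also without rescue array 1 and under other alternatives (highest limma adjusted p 0.108 for Ccn2, 0.109 for Ajuba, 0.131 for Ankrd1, 0.145 for Ptpn14 and 0.148 for Tead4).

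Of 18 antigen presentation genes 7 were called lower and 1 higher (4 to 7 and 0 to 1 with 1 array left out). Genes of MHC class II, which present peptides to helper T cells and which interferon-γ induces in keratinocytes, led the list. Not all class II genes were lower, as H2-Ea (-0.07) and H2-Oa (0.20) were not called. H2-Ab1 gave 23.9 and 9.01 in rescue, 36.6 and 36.1 in null and 1413 and 1306 in wild type (log2 difference -5.44 ± 0.22, limma adjusted p = 5.64e-05), H2-Aa gave 16.5 and 6.12 in rescue, 5.75 and 12.3 in null and 856 and 782 in wild type (log2 difference -4.96 ± 0.22, limma adjusted p = 8.53e-05), and the invariant chain gene Cd74 gave 71.7 and 58.4 in rescue, 61.6 and 74.7 in null and 3142 and 3148 in wild type (log2 difference -5.29 ± 0.12, limma adjusted p = 7.25e-06). H2-DMa, which loads peptides, averaged 58.00 ± 6.99 in rescue, 56.8 ± 3.97 in null and 321 ± 6.55 in wild type (log2 difference -2.19 ± 0.11, limma adjusted p = 1.48e-04). In these 4 genes rescue and null were low and wild type stood alone. All lines were grown with interferon-γ. Interferon-stimulated genes gave 5 higher and 5 lower calls of 36 (2 to 5 and 0 to 5 with 1 array left out). Oasl1 averaged 231 ± 26.4 in rescue, 193 ± 22.9 in null and 49.5 ± 0.385 in wild type (log2 difference 1.91 ± 0.12, limma adjusted p = 4.19e-04) and Bst2, the virus tether tetherin, 2829 ± 95.04 in rescue, 2618 ± 95.2 in null and 1799 ± 94.7 in wild type (log2 difference 0.65 ± 0.07, limma adjusted p = 0.00321). The count of lower calls ranged from 0 to 10 over the alternatives.

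Genes of glutathione metabolism and of NRF2, the factor that induces them under oxidative stress, gave 13 higher and 5 lower calls of 40 (6 to 11 and 4 to 5 when an array was left out). Higher calls also outnumbered lower ones over all clusters with a symbol (12.3% and 6.14%). Gsta3, a glutathione transferase, gave 1382 and 1276 in rescue, 1598 and 1747 in null and 17.8 and 21.8 in wild type (log2 difference 5.23 ± 0.09, limma adjusted p = 4.32e-06). Pir, the nuclear protein pirin, gave 1484 and 1359.9 in rescue, 1207 and 1356 in null and 22.4 and 18.7 in wild type (log2 difference 5.30 ± 0.10, limma adjusted p = 4.32e-06). Both were high in rescue and null and low in wild type. Gpx2, a glutathione peroxidase, gave 280.1 and 273 in rescue, 1835 and 1651 in null and 11.9 and 0.0114 in wild type (3.79). Its wild-type arrays were both dim and disagreed, and the difference was 2.29 to 6.26 over the alternatives. Slc7a11, the cystine transporter that feeds glutathione synthesis, gave 5007 and 4640.1 in rescue, 4640.5 and 4844 in null and 2157 and 2077 in wild type (log2 difference 1.18 ± 0.07, limma adjusted p = 2.58e-04). Lower genes included Ptgr1, a prostaglandin reductase that NRF2 is also known to induce, with 69.7 and 55.4 in rescue, 57.4 and 62.7 in null and 2433 and 2983 in wild type (log2 difference -5.11 ± 0.14, limma adjusted p = 1.36e-05), and the transferases Gstt3 (-2.74) and Gstm4 (-1.28). Glutathione transferase genes of a class are close copies, whose probes may share signal. NRF2 binds the antioxidant response element, and the promoters of Gsta3 and Pir are shown because these were the largest rises of the list and hold its core. The letters TGACNNNGC, searched on both strands, were found in 10.2% of 32851 promoters over 250 bases upstream, in 3 of the 10 promoters given for the 13 higher genes, in 1 of 5 for the lower and in 2 of 19 for the 22 genes not called. The match is in capitals in 60 bases of each (RefSeq, GRCm38.p6, plus strand, chr1:21240435-21240494 and chrX:164269201-164269260), written 5′ to 3′.
Gsta3: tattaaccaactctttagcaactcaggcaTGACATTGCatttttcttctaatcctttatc
Pir: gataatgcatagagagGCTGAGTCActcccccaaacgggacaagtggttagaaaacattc

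Genes of hypoxia and glycolysis were called often, 11 lower and 6 higher of 30 (56.7%, against 18.5%), and 5 to 9 lower and 2 to 4 higher when an array was left out. This list was chosen with earlier results of these data known, so its share is a description and not a test. Beside Slc16a3, Egln3, a HIF prolyl hydroxylase that hypoxia induces, gave 23.5 and 27.4 in rescue, 89.1 and 96.2 in null and 901 and 850.1 in wild type (log2 difference -4.43 ± 0.10, limma adjusted p = 7.25e-06). Pfkfb4 averaged 115 ± 5.83 in rescue, 166 ± 3.996 in null and 274 ± 3.78 in wild type (log2 difference -1.15 ± 0.08, limma adjusted p = 7.00e-04), while its relative Pfkfb3, which also sets the level of a glycolytic activator, averaged 295 ± 3.18 in rescue, 222 ± 0.426 in null and 186 ± 0.611 in wild type (log2 difference 0.62 ± 0.07, limma adjusted p = 0.00446). These 2 isoenzyme genes differed in opposite directions. Car12, a carbonic anhydrase, averaged 1241 ± 1.61 in rescue, 1550.1 ± 120.1 in null and 657 ± 19.4 in wild type (log2 difference 0.90 ± 0.08, limma adjusted p = 0.00121). Of 29 sterol and lipid genes 8 were higher and 1 lower, but 1 to 7 were higher when an array was left out. The lower gene was Scd1, a fatty acid desaturase, with 347 and 311 in rescue, 833 and 904 in null and 1044 and 1114 in wild type (log2 difference -1.67 ± 0.09, limma adjusted p = 1.64e-04), and Abcg1, a sterol exporter, was higher (0.84). Among 33 amino acid and ion transporters 10 were higher and 6 lower (3 to 9 and 4 to 6 with 1 array left out). Slc38a4 gave 34.9 and 36.1 in rescue, 30.9 and 34.3 in null and 1093 and 1090.4 in wild type (log2 difference -4.43 ± 0.09, limma adjusted p = 5.93e-06) and Slc6a14 gave 94.2 and 89.6 in rescue, 26.8 and 31.8 in null and 1598 and 1811 in wild type (log2 difference -3.99 ± 0.10, limma adjusted p = 1.25e-05). Both amino acid carriers were low in the 2 lines from the null mouse. The neutral amino acid carrier Slc1a4 was higher (0.82).

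Of 46 replication and mitosis genes 4 were higher and 4 lower (17.4%; 2 to 5 and 0 to 1 with 1 array left out), none by 2-fold, with Kif23, a mitotic kinesin, at 1662 ± 30.5 in rescue, 1699.8 ± 39.8 in null and 1084 ± 1.29 in wild type (log2 difference 0.61 ± 0.06, limma adjusted p = 0.00219) and the cyclin gene Ccnd2 at 4098 ± 223 in rescue, 3297 ± 90.5 in null and 2586 ± 199 in wild type (log2 difference 0.66 ± 0.08, limma adjusted p = 0.00484). Of 26 p53 target genes 6 were higher and 4 lower (0 to 6 and 2 to 4 with 1 array left out), and their largest difference was that of Pmaip1, the death gene Noxa, with 526 and 522 in rescue, 487 and 570.0 in null and 1266 and 1349.9 in wild type (log2 difference -1.29 ± 0.09, limma adjusted p = 6.28e-04). Rescue and null were low together. Gadd45b, a stress sensor, averaged 1753 ± 78.5 in rescue, 2344 ± 44.9 in null and 2946 ± 20.7 in wild type (log2 difference -0.74 ± 0.06, limma adjusted p = 0.00126). The largest called rise among the p53 targets was that of Gadd45a (0.82). Its difference was 0.666 to 0.976 over the alternatives, but its call did not hold under all of them. The ERK output and Notch lists that follow had 18.5% and 15.8% of their genes called, near the background of 18.5%. Of 27 ERK output genes 3 were higher and 2 lower (1 to 2 and 1 to 2 with 1 array left out), with the AP-1 factor Jun at 408 ± 35.5 in rescue, 439 ± 20.6 in null and 679.5 ± 14.7 in wild type (log2 difference -0.72 ± 0.09, limma adjusted p = 0.00457) and the ERK phosphatase Dusp4 at 467 ± 2.75 in rescue, 222 ± 1.99 in null and 197 ± 46.96 in wild type (log2 difference 1.20 ± 0.15, limma adjusted p = 0.00522). Of 19 Notch genes 2 were higher and 1 lower (1 to 3 and 0 with 1 array left out), and the ligand gene Jag2 averaged 1597 ± 41.2 in rescue, 1487 ± 71.8 in null and 981 ± 109 in wild type (log2 difference 0.70 ± 0.09, limma adjusted p = 0.00648).

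Cytoskeletal genes gave 5 higher and 6 lower calls of 31 (1 to 5 and 4 to 5 with 1 array left out). Lcp1, the actin bundler L-plastin, gave 325 and 301 in rescue, 42.6 and 46.1 in null and 20.4 and 7.11 in wild type, high in rescue (log2 difference 3.50 ± 0.22, limma adjusted p = 3.44e-04). Rnd1 averaged 41.4 ± 0.848 in rescue, 42.2 ± 0.242 in null and 569.8 ± 36.4 in wild type (log2 difference -3.35 ± 0.10, limma adjusted p = 1.87e-05), and Arhgdib gave 1456 and 1444 in rescue, 97.5 and 123 in null and 4004 and 4239 in wild type (log2 difference -1.50 ± 0.11, limma adjusted p = 6.32e-04). Arhgdib was lowest in null. Imprinted genes, expressed from a single parental copy, gave 3 higher and 4 lower calls of 17 (0 to 2 and 2 to 4 with 1 array left out). Igf2r, a receptor that clears IGF2, gave 109 and 126 in rescue, 232 and 238 in null and 446 and 467 in wild type (log2 difference -1.83 ± 0.09, limma adjusted p = 1.54e-04), and Ndn, necdin, averaged 108 ± 19.8 in rescue, 90.5 ± 14.7 in null and 412 ± 8.000 in wild type (log2 difference -1.79 ± 0.15, limma adjusted p = 0.00116).

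**Figure D4:**
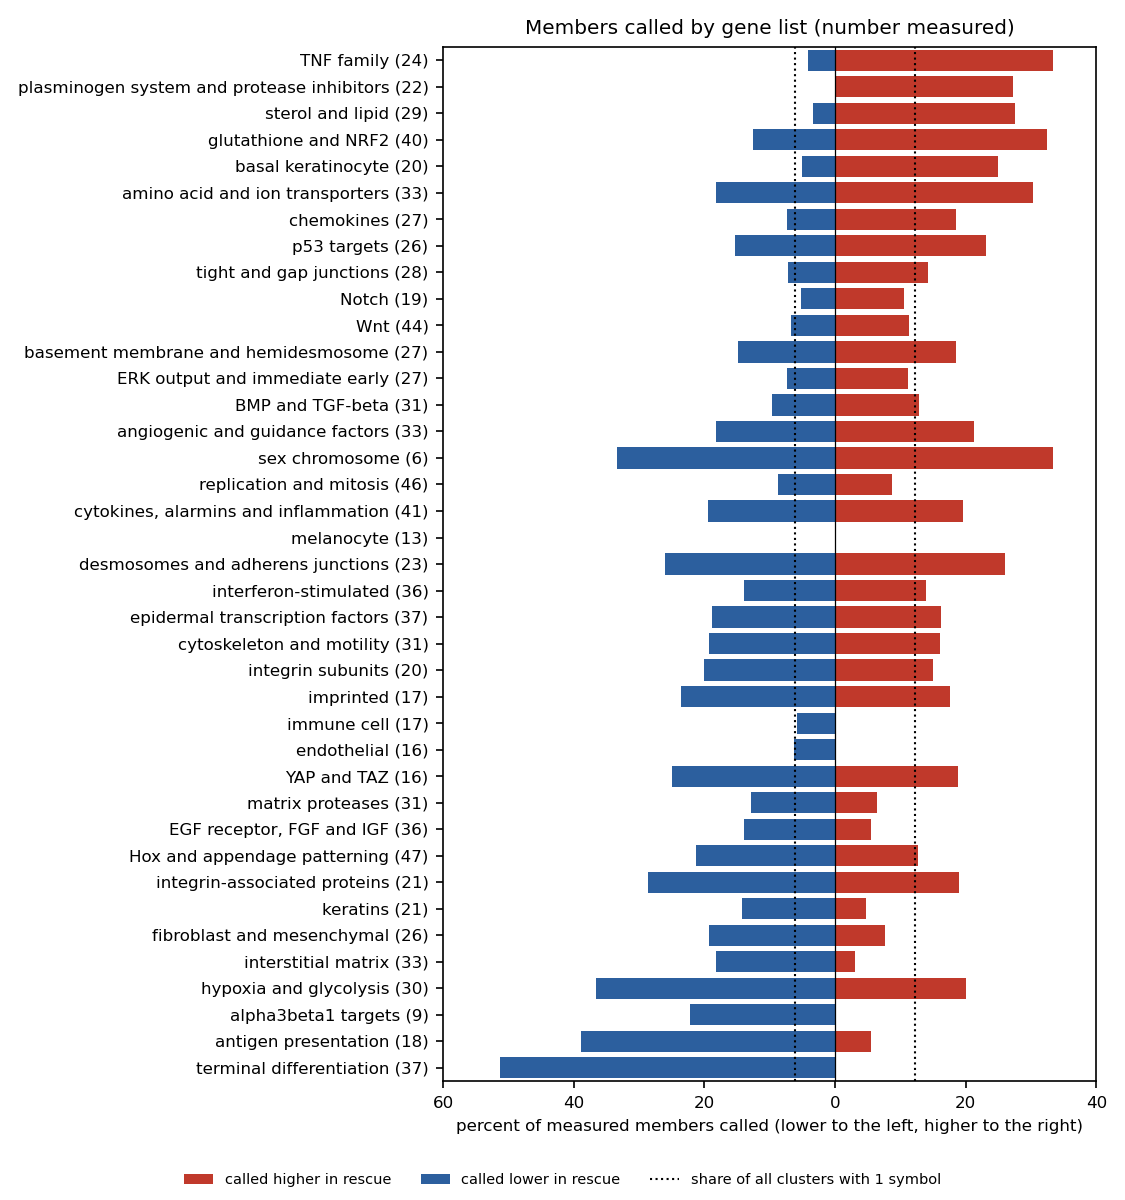
Percent of the measured members of each of 39 gene lists (number measured in parentheses) that were called higher (red, to the right) or lower (blue, to the left) in rescue against wild type; dotted lines mark 12.3% higher and 6.14% lower among all clusters with a single symbol. Terminal differentiation (19 of 37 lower, 0 higher) has the longest bar to the left.

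The lines also differed in Y-linked transcripts. Kdm5d, a histone demethylase gene of the Y chromosome, gave 228 and 229 in rescue, 219.5 and 211 in null and 12.9 and 7.25 in wild type (log2 difference 3.24 ± 0.13, limma adjusted p = 5.72e-05). The lines from the null mouse had signal and the wild-type arrays were dim. Eif2s3y, a Y-linked translation factor gene, gave 91.6 and 86.2 in rescue, 29.5 and 24.7 in null and 19.2 and 22.7 in wild type (log2 difference 1.51 ± 0.13, limma adjusted p = 0.00150), and here null was close to wild type. The X-linked relative Kdm5c gave 608 and 672 in rescue and 668 and 675 in wild type and was not called (-0.07). X-linked Ddx3x was also not called. Kdm6a, on the X chromosome too, was called lower, with a difference of -0.701 to -0.521 over the alternatives. Its call was lost without each of the 4 arrays of these lines in turn. The X-linked relative Eif2s3x gave 4092 and 3767 in rescue and 5189 and 5051 in wild type (-0.38), and the call of Eif2s3x was lost without rescue array 2, wild-type array 1 or wild-type array 2, and without the variance trend (highest limma adjusted p 0.120).

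Calls were spread unevenly over the chromosomes. Of 14830 genes placed on the assembly 12.4% were called higher and 6.18% lower. On chromosome 5 these shares were 23.3% and 3.65% of 877 genes, with a median difference of 0.14, on chromosome 9 they were 21.0% and 10.4% of 906, and on chromosome 1 they were 18.1% and 3.89% of 849. Chromosome 10 ran the other way, with 2.99% higher and 9.12% lower of 702 genes and a median of -0.06. On chromosome 5 the counts were 204 higher and 32 lower, against 171 and 37 after median centring and 161 and 43 after quantile normalization, and on chromosome 10 they were 21 and 64, against 20 and 71, and 17 and 101. Without wild-type array 2 they were 43 and 14 on chromosome 5, and 8 and 18 on chromosome 10, and without wild-type array 1 they were 65 and 15, and 7 and 20. Without rescue array 1 they were 88 and 21, and 10 and 32, and without rescue array 2 they were 136 and 21, and 17 and 36. Higher calls without 1 of these 4 arrays were 58 to 145 on chromosome 9 and 44 to 105 on chromosome 1. Chromosome 8 had 95 higher calls of 753 genes, and without wild-type array 1 or 2 it had 61 and 52 and then the highest share of the chromosomes. The median for null minus wild type was 0.03 on chromosome 5 and 0.07 on chromosome 10.

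**Figure D5:**
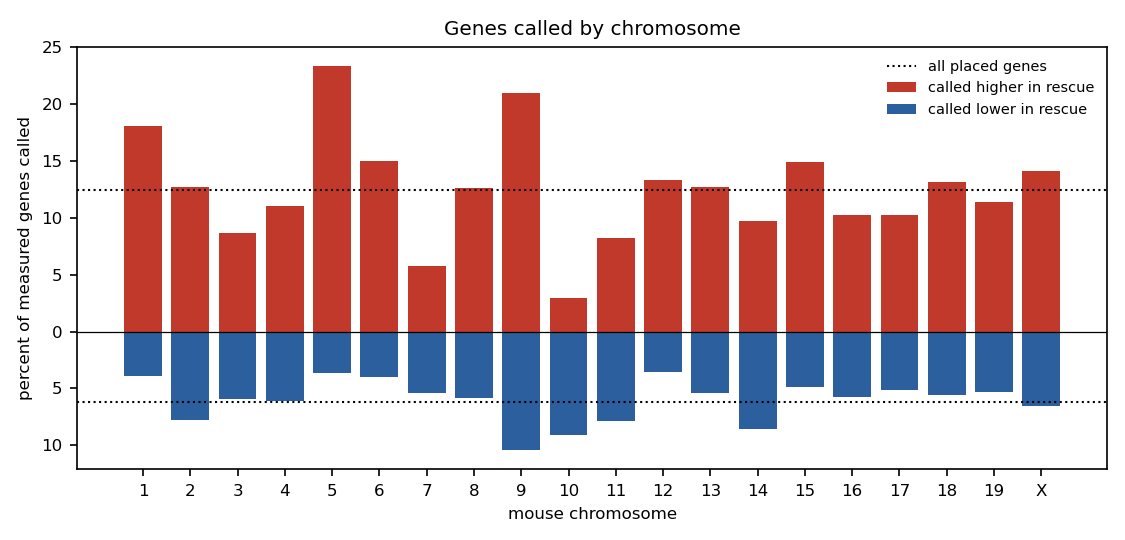
Percent of measured genes called higher (red, above 0) or lower (blue, below 0) in rescue against wild type on each mouse chromosome (x axis); dotted lines mark 12.4% and 6.18% over all placed genes. With all arrays, chromosomes 5 and 9 have the largest share of higher calls and chromosome 10 the smallest, while without either wild-type array chromosome 8 has the largest; the Y chromosome (3 genes) is left out.

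Runs of neighbouring genes were ranked by their median difference, as a description. The 2 highest of 15 genes each lay on chromosome 8, from Lrrc8e to Abhd13 (median 1.13, 11 higher and 0 lower) and from Defb13 to Vdac3 (0.62, 9 higher and 0 lower). For null minus wild type the medians of the same genes were -0.02 and 0.05. In the run from Lrrc8e, Shcbp1, a protein of dividing cells, gave 1566 and 1356 in rescue, 489 and 468 in null and 386 and 407 in wild type (log2 difference 1.84 ± 0.09, limma adjusted p = 1.27e-04), and Lig4, the ligase of DNA end joining, gave 774 and 822 in rescue, 285 and 354 in null and 277 and 376 in wild type (log2 difference 1.26 ± 0.16, limma adjusted p = 0.00609). Only rescue was high in both, and Ccl25, described above, lies in the same run. In the run from Defb13, Vps36, an endosomal sorting protein, gave 2198 and 2031 in rescue, 713 and 723 in null and 744 and 744 in wild type (log2 difference 1.49 ± 0.07, limma adjusted p = 8.68e-05), and Ckap2, a spindle protein, averaged 2975 ± 149.5 in rescue, 1116 ± 21.4 in null and 1079.8 ± 73.8 in wild type (1.45). A run on chromosome 2 from Nr1h3 to Dgkz followed (0.52, 8 higher and 0 lower; 0.32 for null minus wild type). Beside the Sprr block, the lowest runs lay on chromosome 9, from Phip to Cyb5r4 (-0.50, 10 lower and 0 higher; -0.36 for null minus wild type) and from Qars to Col7a1 (-0.45, 9 lower and 0 higher; -0.38 for null minus wild type). Phip, a chromatin reader, averaged 244 ± 0.779 in rescue, 357 ± 1.48 in null and 436 ± 11.1 in wild type (log2 difference -0.80 ± 0.07, limma adjusted p = 0.00138), and Wdr6, a WD-repeat gene in the run from Qars, gave 129 and 142 in rescue, 235 and 247 in null and 301 and 316 in wild type (log2 difference -1.10 ± 0.09, limma adjusted p = 9.88e-04).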

How the data were processed

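Total RNA was hybridised to Affymetrix Mouse Exon 1.0 ST arrays, and the deposited values are PLIER intensity values of a core-exon analysis, per the labels; Affymetrix Expression Console is named in the submitters' processing notes, and the Exon Array Computational Tool in the design text. The labels state no background correction, normalization between arrays, software version or build. Groups and replicate numbers came from the titles. The members and lists were chosen with earlier results of these data known.

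Values were analysed as log2(intensity + 16) without filter. The fit used limma 3.58.1 in R 4.3.3, with a mean for each line over all 6 arrays (lmFit, eBayes with an intensity trend; 3 residual and 3.00 prior degrees of freedom), with null arrays adding to the estimate of spread. P-values are two-sided and were adjusted by Benjamini-Hochberg over 23332 clusters. Intervals are limma's 95% intervals. On simulated data for rescue minus wild type with 23332 clusters, sets of 50 clusters were given a known change; 28% were called at a log2 change of 0.5, 64% at 1, 100% at 2 and 100% at 3. Of the 154 calls 8 were false. The simulation drew independent noise and changed far fewer clusters than were called in the data, so these rates need not hold for the data.

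Of the clusters, 14996 had 1 gene symbol in the platform annotation, 1019 several and 7317 none; 14941 matched RefSeq (GRCm38.p6) by Entrez identifier, which also gave gene order. Symbols with several clusters used the brightest. The 39 lists hold 1257 entries, of which 1058 were measured. Named genes were the 15 largest rises and falls with non-overlapping lines (predicted genes skipped), up to 4 called members of each list in each direction by size, called integrins, genes reported for α3β1, sex-linked genes, the brightest called genes, and members of the 3 highest and 3 lowest runs of 15 neighbours; the text describes mainly those whose call held under every alternative, a narrowing made after the values were seen. The promoter motifs, and the genes whose promoters are shown, were also chosen after the values were seen. Alternatives changed the pseudocount, normalization, filter, variance model, arrays in the fit, replicate block and clusters tested.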

Additional observations from a re-analysis of the deposited data

How the results depend on the processing

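The count of 3599 called clusters was 2406 to 4174 under the 11 alternatives that kept all arrays of both lines, and 1088 to 2819 when 1 array was left out, with 686 to 1895 higher and 402 to 924 lower; without null array 1 or 2 it was 2819 or 2802. Higher calls were 1564 without the variance trend. The share of higher calls was 53.5% after quantile normalization and 60.5% to 67.6% without an array. Calls of at least 2-fold were 467 with a pseudocount of 64 and 629 to 742 without an array. Of 3599 called clusters 1053 stayed called without wild-type array 2. Of 336 named genes 293 were called, 165 of these under each of the 17 alternatives that tested them, and 0 of the called genes changed sign in any. With replicate number as a block (replicate block) 3099 clusters were called. The numbers share no stated culture or day, and deviations of same-numbered rescue and wild-type arrays from their line means correlated at 0.05. A left-out array leaves its line with 1 array, which is assumed to vary like the others.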

Other observations

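Apart from Stmn2, the brightest called genes had small differences. Fth1, the ferritin heavy chain, averaged 17964 ± 305 in rescue, 14384 ± 408 in null and 12289 ± 255 in wild type (log2 difference 0.55 ± 0.06, limma adjusted p = 0.00402), the only one of the 5 brightest higher calls that held under all 17 alternatives. Of the 5 brightest lower calls, Aldoa, a glycolytic aldolase, averaged 11187 ± 73.7 in rescue, 12380.2 ± 556 in null and 13891 ± 491 in wild type (-0.31), and its call was lost in 9 of the 17 (highest limma adjusted p 0.196), among them each fit that left out a rescue, wild-type or null array. Clusters without a symbol in the tables used here made up 667 of the 3599 calls.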
